A study of Mus musculus with 61 samples.

Results

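The 10 genes described here are genes of blood vessel cells: Esm1, Plvap, Kdr, Flt1, Tek, Cldn5, Slco1a4, Slc2a1, Pecam1 and Cdh5. They were selected on measured values, the signals of Esm1 by strain in the pituitary gland and those of vessel genes in the pituitary gland and the brain, and because Plvap and Esm1 mark vessels with pores whereas Cldn5, Slco1a4 and Slc2a1 mark vessels with a barrier. They are 10 of the 18193 genes that an array probe set names alone, and 16 of the 34945 probe sets of that kind. The pituitary gland and 4 brain regions, the pag (periaqueductal gray), bnst (bed nucleus of the stria terminalis), hypothalamus and hippocampus, were dissected from wild-type males, 8 weeks old, of 6 inbred strains: C3H/HeJ, 129S6/SvEvTac, DBA/2J, C57BL/6J, A/J and FVB/NJ. The 129S6/SvEvTac mice came from Taconic and the other 5 strains from the Jackson Laboratory, so strain and supplier cannot be told apart for 129S6/SvEvTac. RNA was hybridised to 61 one-colour Affymetrix mouse genome arrays, 12 of the pituitary gland and 49 of the brain, with 2 arrays of separate animals or pools in 29 of the 30 groups and 3 in the C3H/HeJ bnst. A pituitary array held RNA of 5 mice, a bnst array of 2 or 3, a hypothalamus or pag array of 1 or 2, and a hippocampus array of 1.

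Most vessels of the brain are sealed: their endothelial cells are joined by tight junctions, let little through by vesicles and carry transporters for nutrients and organic anions, under Wnt and norrin signals from neighbouring cells. The pituitary gland lies outside this blood-brain barrier, and its capillaries have pores (fenestrae) through which hormones enter the blood. Vascular endothelial growth factor (VEGF) is known to keep such capillaries open and fenestrated, and Esm1 (endocan), a proteoglycan that endothelial cells secrete, is known as a VEGF-induced gene of the tip cells that lead vascular sprouts.

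The 300 bases around the annotated start site of 4 of the genes are shown because these genes stand at the ends of the contrast between pituitary gland and brain, Esm1 and Kdr higher in the pituitary gland and Cldn5 and Slco1a4 lower. The sequences are from RefSeq (GRCm38.p6), which gave a promoter for 7 of the 10 genes (Esm1, Kdr, Flt1, Tek, Cldn5, Slco1a4 and Slc2a1), and run 5′ to 3′ on the strand of the gene, from 250 bases before the start site to 50 after it. Capitals mark matches on either strand to GGAAG, a longer form of the GGAA core bound by ETS factors, or to CTTTGA, a site of the TCF/LEF factors of Wnt signalling. An ETS match here is a match to GGAAG only. The windows are chr13:113209409-113209708 (plus strand) for Esm1, chr5:75978406-75978705 (minus strand) for Kdr, chr16:18776597-18776896 (plus strand) for Cldn5 and chr6:141856171-141856470 (minus strand) for Slco1a4.
Esm1: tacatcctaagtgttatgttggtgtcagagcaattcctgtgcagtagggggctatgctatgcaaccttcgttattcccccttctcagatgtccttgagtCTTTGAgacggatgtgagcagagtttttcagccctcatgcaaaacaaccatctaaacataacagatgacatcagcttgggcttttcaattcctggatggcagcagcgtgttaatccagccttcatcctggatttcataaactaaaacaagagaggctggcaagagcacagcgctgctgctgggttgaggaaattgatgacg
Kdr: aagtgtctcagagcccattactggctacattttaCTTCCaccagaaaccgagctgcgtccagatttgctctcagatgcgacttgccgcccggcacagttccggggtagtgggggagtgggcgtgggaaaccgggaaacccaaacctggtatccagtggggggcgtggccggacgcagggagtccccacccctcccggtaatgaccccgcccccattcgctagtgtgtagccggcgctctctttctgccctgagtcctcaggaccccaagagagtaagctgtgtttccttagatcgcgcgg
Cldn5: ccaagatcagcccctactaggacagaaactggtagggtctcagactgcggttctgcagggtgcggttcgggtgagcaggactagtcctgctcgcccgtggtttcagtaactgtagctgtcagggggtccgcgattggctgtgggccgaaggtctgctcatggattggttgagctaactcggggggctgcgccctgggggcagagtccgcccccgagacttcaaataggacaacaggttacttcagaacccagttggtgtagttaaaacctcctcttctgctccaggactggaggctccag
Slco1a4: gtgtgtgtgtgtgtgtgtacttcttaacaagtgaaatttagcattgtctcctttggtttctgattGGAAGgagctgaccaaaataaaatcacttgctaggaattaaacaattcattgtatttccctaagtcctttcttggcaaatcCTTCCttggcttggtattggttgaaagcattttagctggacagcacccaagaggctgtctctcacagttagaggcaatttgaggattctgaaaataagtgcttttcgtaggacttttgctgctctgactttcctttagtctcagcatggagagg
The Esm1 window held 1 TCF/LEF match, 151 bases before the start site, and no match to GGAAG, although it held the shorter GGAA. The Kdr and Slco1a4 windows also held GGAA outside their marked matches. Kdr held 1 ETS match, Slco1a4 held 2, and Cldn5 held neither motif. Among the 32851 promoters of that length, 71.4% held an ETS match and 16% a TCF/LEF match, and the 2 motifs share no letters in these windows. Of the promoters not printed, Flt1 held 3 ETS matches, and Slc2a1 and Tek held neither motif. The GC content was 46.3% for Esm1 and 40.7% for Slco1a4, against a median of 52.7% over all promoters, and 60.7% for Kdr and 58.3% for Cldn5.

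The deposited signals are linear, background-subtracted and scaled to a common level by the authors, so a value near or below 0 is no measurable transcript. Means per array lay between 180.5 and 200.5. For log2 differences, signals under 12.78, the 20th percentile of all values, were raised to that floor, and a difference was called at a Benjamini-Hochberg adjusted p under 0.05 in limma over the 44065 probe sets above the floor on at least 1 array. The tissue labels were borne out by their markers: the summed signal of 7 hormone genes was 44820 to 63896 on pituitary arrays and 93.3 to 7846 on brain arrays, that of 8 astrocyte genes was 647 to 1146 and 7773 to 11536, and that of 6 neuronal genes was 3352 to 4950 and 11297 to 16867. On 7 brain arrays the hormone sum was above 3000, and the highest, C57BL/6J hypothalamus replicate 1, reached 14.5% of the pituitary median. Levels of different probe sets depend on their probes and are not set against each other. In bulk tissue, fewer vessel cells and less RNA per vessel cell cannot be told apart.

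Esm1 was measured above the floor on all 12 pituitary arrays and on 1 of the 49 brain arrays. The pituitary signals were 679 and 537 in C3H/HeJ, 653 and 551 in 129S6/SvEvTac, 267 and 225 in DBA/2J, 229.8 and 187 in C57BL/6J, 139 and 104 in A/J, and 101 and 99.1 in FVB/NJ. The brain signals lay between -14.3 and 14.3, with a median of -0.71. The gland and the brain did not overlap, and the pituitary arrays stood at 7.75 to 53.2 times the floor. The brain array with the most hormone signal, C57BL/6J hypothalamus replicate 1, gave an Esm1 signal of -1.58, and the next, FVB/NJ pag replicate 1, gave -0.71.

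The strains fell into 3 levels of Esm1. The means were 608 ± 101 in C3H/HeJ and 602 ± 71.9 in 129S6/SvEvTac, 246 ± 29.8 in DBA/2J and 209 ± 30.1 in C57BL/6J, and 121 ± 24.6 in A/J and 100.1 ± 1.49 in FVB/NJ (SD, n = 2 each). Within a level the strains stood close: C3H/HeJ and 129S6/SvEvTac stood at a ratio of 1.01 and DBA/2J and C57BL/6J at 1.18, each with overlapping arrays, and A/J and FVB/NJ at 1.21, with arrays that did not overlap but lay close (104 against 101). Between levels no arrays overlapped, and C57BL/6J was 1.72 times A/J and C3H/HeJ 6.07 times FVB/NJ. Esm1 was chosen for this pattern, so its strain levels are given as a description without a test. Its level rests on 1 probe set, and the part of sequence differences between strains under the probes, which can change a signal, was not tested here or for any other strain difference below.

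**Figure D1:**
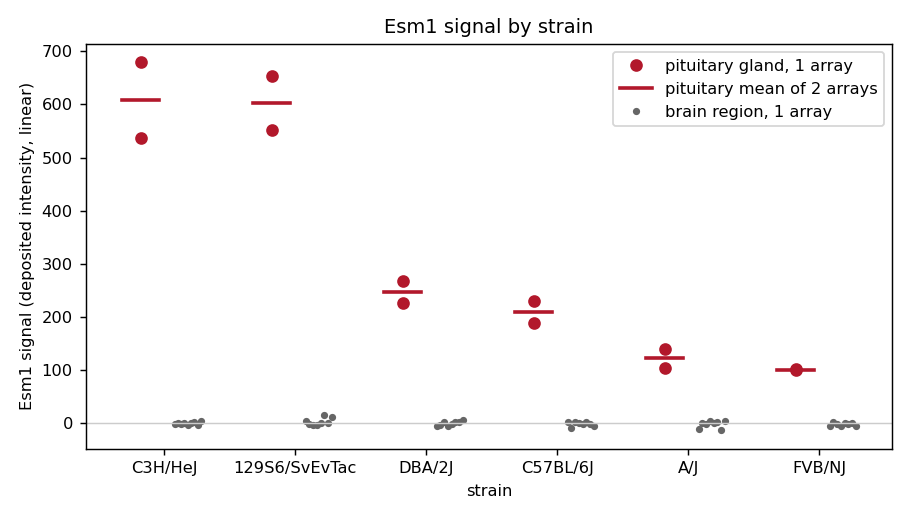
Esm1 signal (linear, as deposited) of each array by strain, pituitary gland and the 4 brain regions. The floor of 12.78 is not drawn. The 12 pituitary arrays lie between 99.1 and 679 and form 3 levels of 2 strains each, while 48 of the 49 brain arrays lie at or below the floor.

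The contrast of the pituitary gland with the brain was also part of the choice of genes, and is described without a test. Of the 10 genes, each by its probe set with the highest mean signal, 6 were higher in the pituitary gland (Esm1, Plvap, Kdr, Cdh5, Pecam1 and Tek) and 4 lower (Cldn5, Slco1a4, Slc2a1 and Flt1). Over all probe sets tested, 40.6% were called higher and 25.4% lower in the pituitary gland, and the median difference was 0.10 on the log2 scale, and 0.01 when arrays were scaled to the same median. In 7 of the genes the pituitary and brain arrays did not overlap: every pituitary array was above every brain array in 4 (Esm1, Plvap, Kdr and Cdh5), as in 7.32% of all probe sets tested, and below in 3 (Cldn5, Slco1a4 and Slc2a1), as in 6.82%.

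Plvap, which forms the diaphragm across fenestrae and caveolae, had pituitary signals from 492 to 934 (median 703) and brain signals from 28.7 to 192 (median 113). Every pituitary array lay above every brain array, and the means were 723 ± 127 and 116 ± 43.2 (SD, n = 12 and 49), a 6.25-fold difference. Plvap was measured above the floor on every brain array, unlike Esm1.

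The VEGF receptors differed in direction. Kdr (VEGF receptor 2), the main signalling receptor, had pituitary signals from 243 to 747 (median 509) and brain signals from 29.2 to 168 (median 69.3). Its ranges did not overlap, with means of 495 ± 156 and 77.3 ± 32 and a 6.40-fold difference. Flt1 (VEGF receptor 1), which also acts as a decoy for VEGF, had pituitary signals from 61.5 to 141 (median 108) and brain signals from 107 to 224 (median 169). Its ranges overlapped, and its mean was 1.64-fold lower in the pituitary gland, 104 ± 25.3 against 171 ± 27.0. All 4 Flt1 probe sets lay lower in the pituitary gland, with log2 differences of -0.73, -0.96, -0.65 and -0.87. Tek, the receptor for angiopoietins, ran from 109 to 202 (median 154) in the pituitary gland and from 56.7 to 137 (median 91.9) in the brain, with overlapping ranges and a 1.70-fold higher mean.

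The 3 barrier genes were lower in every pituitary array than in any brain array. Cldn5, the claudin that seals endothelial tight junctions, had pituitary signals from 18.2 to 52.0 (median 33.4) and brain signals from 136 to 432 (median 299). Its mean was 7.88-fold lower in the pituitary gland, at 36.5 ± 11.2 against 287 ± 67.8. Slco1a4, an organic anion transporter of brain capillaries, ran from 22.5 to 75.3 (median 54.7) in the pituitary gland and from 157 to 449.8 (median 309.7) in the brain, and its mean was 5.92-fold lower in the gland. Slc2a1, the glucose transporter of the barrier, which many other cells also use, ran from 294 to 386 (median 344) in the pituitary gland and from 523 to 1151 (median 783) in the brain. Its difference was smaller, 2.29-fold lower in the pituitary gland, and its other probe sets gave 3.07-fold and 2.80-fold.

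The 2 general endothelial genes were measured at modest signals. Cdh5 (VE-cadherin), the adhesion molecule of endothelial junctions, ran from 81.4 to 145 (median 101) in the pituitary gland and from 11.3 to 73.8 (median 51.9) in the brain, without overlap and with a 2.03-fold higher mean. Its other probe set was 1.80-fold higher with overlapping ranges. Pecam1 (CD31), another junctional adhesion molecule, ran from 31.9 to 87.4 (median 57.5) in the gland and from 7.89 to 62.1 (median 37.5) in the brain, with overlapping ranges, 4 brain arrays at or below the floor and a 1.63-fold higher mean. The summed signal of 24 other endothelial genes was 2522 to 3280 on pituitary arrays and 1684 to 2619 on brain arrays; the part of vessel content in the differences above was not tested.

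**Figure D2:**
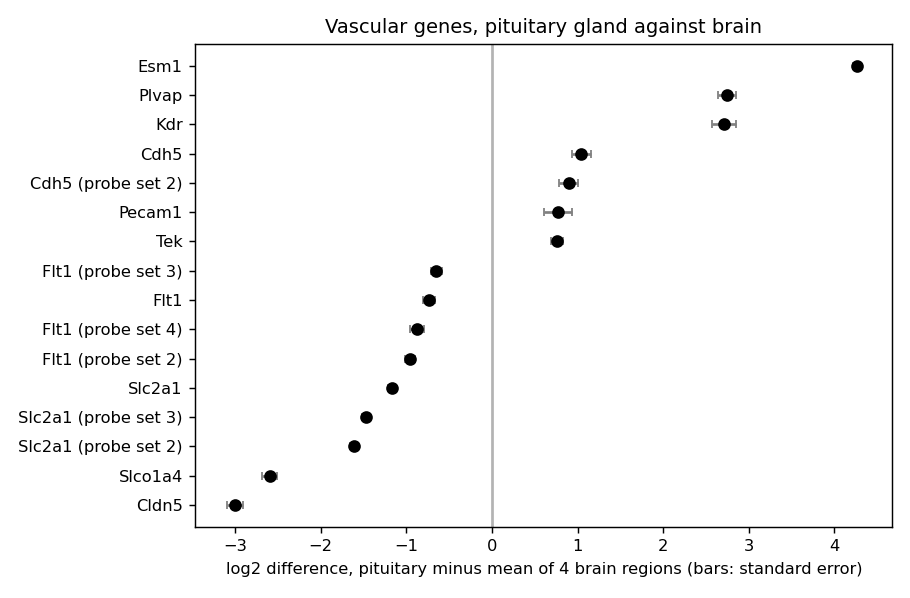
Difference between the pituitary gland and the mean of the 4 brain regions (log2, with floor) for each of the 16 probe sets, with its standard error. Esm1, Plvap and Kdr lie at 4.26, 2.75 and 2.71 and Slco1a4 and Cldn5 at -2.59 and -3.00; the value of Esm1 depends on the floor.

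On the log2 scale the differences were 2.75 (SE 0.11) for Plvap, 2.71 (SE 0.14) for Kdr, 1.05 (SE 0.12) for Cdh5, 0.77 (SE 0.16) for Pecam1 and 0.76 (SE 0.07) for Tek. They were -0.73 (SE 0.07) for Flt1, -1.17 (SE 0.04) for Slc2a1, -2.59 (SE 0.09) for Slco1a4 and -3.00 (SE 0.09) for Cldn5. The Esm1 difference of 4.26 is set by the floor under its brain signals: it was 2.85 with the floor at the 40th percentile and 7.47 with a floor of 1. The signs of the other 9 genes were the same under every scaling and floor tried.

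Whether the genes differ among the 4 brain regions was not used to choose them and could be tested. The F test over the regions called 5 of the 10 genes, Plvap, Cldn5, Slc2a1, Flt1 and Tek, where 51.5% of all probe sets were called. The pag was higher than the mean of the other 3 regions in 4 genes (Plvap, Cldn5, Slc2a1 and Flt1). Of the 44065 probe sets, 9044 were called higher there and 34.9% in either direction. The hypothalamus was lower in 3 (Cldn5, Flt1 and Tek), with 5680 of the 44065 probe sets called lower and 29.4% in either direction. The hippocampus was lower in 2 (Plvap and Slc2a1), with 10256 probe sets called lower and 40.7% in either direction. No gene was called in the bnst by limma, where 18.7% of probe sets were called and 1 of the 10 genes had an unadjusted p under 0.05.

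Slc2a1 had the clearest order among the brain regions. Its signals ran from 783 to 1151 (median 946) in the pag, 611 to 970.5 (median 795) in the hypothalamus, 663 to 967 (median 771) in the bnst and 523 to 752 (median 632) in the hippocampus. The lowest pag array stood above every hippocampus array, while the hypothalamus and bnst arrays covered the same range. The pag exceeded the other 3 regions by 0.39 (SE 0.04, adjusted p = 1.4e-09, limma) and the log2 difference of the hippocampus was -0.43 (SE 0.04, adjusted p = 6.3e-11).

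Plvap averaged 136 ± 33.3 in the pag and 126 ± 45.9 in the hypothalamus, 108 ± 50.7 in the bnst and 93.3 ± 30.4 in the hippocampus (SD, n = 12, 12, 13 and 12). The regions overlapped on single arrays. The pag was higher than the other 3 by 0.42 (SE 0.11, adjusted p = 0.0024, limma) and the hippocampus lower (log2 difference -0.35, adjusted p = 0.0088). The hypothalamus, whose median eminence is supplied by fenestrated capillaries, was not called for Plvap. For Cldn5 the hypothalamus, at 246 ± 63.7, was lower than the other 3 regions (log2 difference -0.31, adjusted p = 0.010), and the pag, at 322 ± 65.0, was higher by 0.24 (adjusted p = 0.048). The F test for Cldn5 (adjusted p = 0.019) was lost when arrays were scaled to the same median (0.060) and when 6 brain arrays with hormone signal were left out (0.066).

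Flt1 was lower in the hypothalamus, at 145 ± 18.9 (log2 difference -0.30, adjusted p = 0.0012, limma), and higher in the pag, at 189 ± 25.2, by 0.20 (adjusted p = 0.027). Tek was lower in the hypothalamus, at 80.6 ± 12.1 against 94.5 to 95.7 in the other regions (log2 difference -0.25, adjusted p = 0.0050), and its F test was lost without any 1 of 5 hypothalamus arrays (129S6/SvEvTac 2, A/J 2, C3H/HeJ 2, DBA/2J 2 and FVB/NJ 1, adjusted p of 0.061 to 0.10). Slco1a4, Pecam1, Cdh5 and Kdr were not called among the regions (adjusted p of 0.29, 0.31, 0.70 and 0.77). In the linear model on the deposited signals, Slco1a4 was called (0.0064) and Tek was not (0.071). Esm1 was at or below the floor on 48 of the 49 brain arrays. The second probe set of Cdh5 was called (adjusted p = 0.0038), with log2 differences of -0.47 in the hippocampus and 0.33 in the pag. The summed signal of the 24 other endothelial genes moved in the same way between the pag and the hypothalamus, at 2225 to 2619 in the pag, 1733 to 2241 in the hypothalamus, 1913 to 2356 in the hippocampus and 1684 to 2171 in the bnst, and its part in these differences was not tested. The summed signal of 8 choroid plexus genes was 345 to 10373 in the bnst and 873 to 6714 in the hippocampus, and 335 to 753 in the pag, and its part was not tested either.

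**Figure D3:**
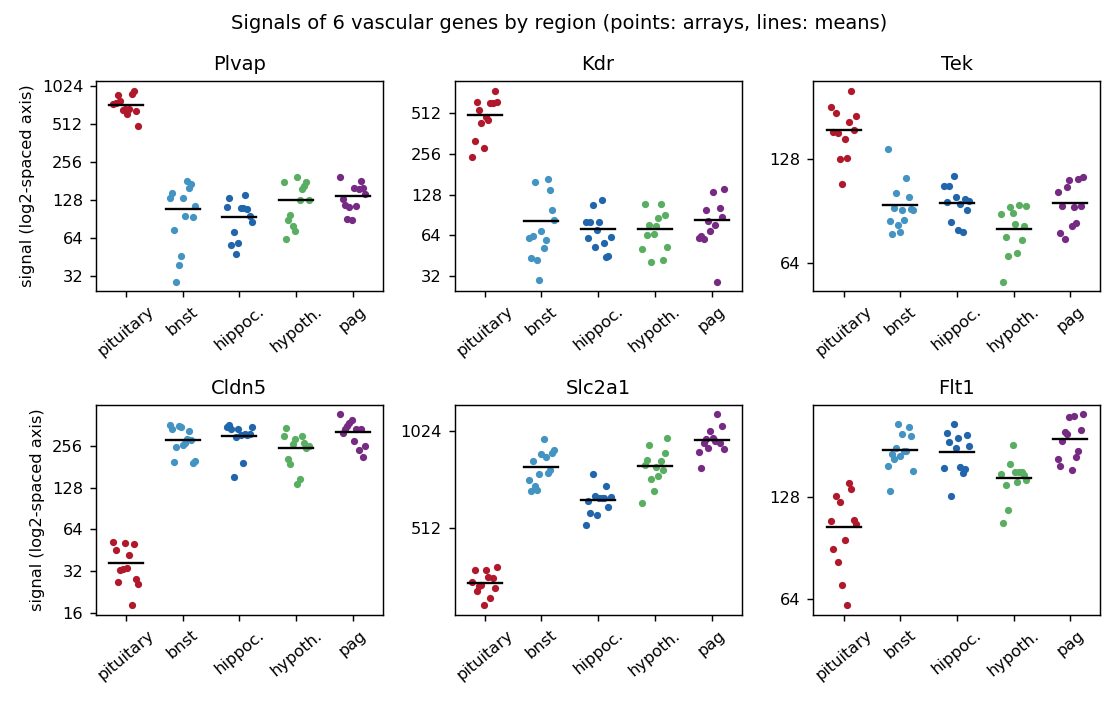
Signal of each array (log2-spaced axis) in the pituitary gland and the 4 brain regions for the highest probe sets of Plvap, Kdr, Tek, Cldn5, Slc2a1 and Flt1. Plvap and Kdr lie higher in the pituitary gland than on any brain array and Cldn5 and Slc2a1 lower, while Flt1 and Tek overlap.

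Esm1 was chosen for its strain levels in the pituitary gland, so its wider spread there than that of the other 9 genes restates the choice. The highest strain mean was 6.07 times the lowest for Esm1, 2.44 times for Kdr, 1.81 for Cldn5, 1.76 for Pecam1, 1.75 for Flt1, 1.60 for Plvap, 1.54 for Tek, 1.5 for Cdh5, 1.27 for Slco1a4 and 1.16 for Slc2a1. In limma's F test over the 6 strains in the pituitary gland, 0 of the 9 genes other than Esm1 were called, where 31.9% of all probe sets were. At an unadjusted p under 0.05 there were 3 (Cldn5, Kdr and Flt1), and a linear model on the deposited signals called 4 (Plvap, Kdr, Cdh5 and Tek). With arrays scaled to the same median, 3 were called (Kdr, Flt1 and Tek).

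By the highest probe set of each gene, Kdr had the widest strain range after Esm1, and a different order. Its pituitary signals were 747 and 619 in FVB/NJ, 606 and 605 in DBA/2J, 618 and 539 in A/J, 479 and 449.7 in C3H/HeJ, 428 and 283 in C57BL/6J, and 318 and 243 in 129S6/SvEvTac. FVB/NJ, lowest for Esm1, was highest for Kdr, and 129S6/SvEvTac, in the upper level of Esm1, was lowest. The strain test of Kdr gave an adjusted p of 0.11 in limma, 0.031 after scaling to the same median and 5.5e-10 in the linear model on the signals.

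The pituitary signals of Plvap were 934 and 879.6 in DBA/2J, 866 and 779 in A/J, 750.4 and 737 in 129S6/SvEvTac, 668 and 657 in C57BL/6J, 665 and 614 in C3H/HeJ, and 639 and 492 in FVB/NJ (adjusted p = 0.47, limma). For Flt1 the strain test of the highest probe set gave an adjusted p of 0.055, with 141 and 135 in DBA/2J at the upper end and 95.8 and 61.5 in C3H/HeJ at the lower. It passed the threshold without any 1 of 11 arrays (both A/J hippocampus, 129S6/SvEvTac hypothalamus, C3H/HeJ pag, A/J pituitary and C57BL/6J pituitary arrays and C3H/HeJ pituitary replicate 1, adjusted p of 0.0093 to 0.047). The Flt1 probe sets disagreed on A/J: the third gave 55.4 and 42.0 in A/J, against 59.6 to 109 in the other strains (adjusted p = 3.5e-04), and the fourth 13.9 and 12.8, against 30.2 to 53.8 (adjusted p = 1.0e-05), while the first 2 did not place A/J lowest.

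For the barrier genes the replicate arrays of a strain could differ by more than the strains. Cldn5 gave 18.2 and 49.9 in the 2 DBA/2J pituitary arrays and 52.0 and 45.4 in those of 129S6/SvEvTac, its highest strain (adjusted p = 0.0997, limma). Without DBA/2J replicate 1 or replicate 2 the adjusted p was 0.016 or 0.0014, and without either A/J hippocampus array 0.047. Slco1a4 gave 22.5 and 70.5 in the 129S6/SvEvTac pituitary arrays, and its adjusted p of 0.49 became 4.4e-04 without replicate 2. Slc2a1 was even over strains, from 294 to 386 (adjusted p = 0.58), although its second probe set was called (adjusted p = 0.0042), at 297 and 215 in 129S6/SvEvTac and 169 and 153 in FVB/NJ. Tek, Cdh5 and Pecam1 gave adjusted p of 0.13, 0.63 and 0.65.

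Over the 4 brain regions together, the F test among strains called 4 of the 9 genes other than Esm1, where 30.1% of probe sets were called. Plvap had the smallest p (6.8e-08 adjusted, limma): its brain mean was 153 ± 21.5 in DBA/2J, 135 ± 39.9 in 129S6/SvEvTac, 135 ± 34.0 in C3H/HeJ and 124 ± 33.5 in FVB/NJ, against 77.4 ± 27.0 in A/J and 67.4 ± 24.6 in C57BL/6J (SD, n = 8 arrays, 9 in C3H/HeJ). The brain arrays of A/J and C57BL/6J reached 116 and 111, and those of DBA/2J began at 108. Cldn5 was highest in 129S6/SvEvTac, at 351 ± 39.3, and lowest in C3H/HeJ, at 245 ± 70.4 (adjusted p = 0.0020). Slco1a4 took another order, 385 ± 42.5 in C3H/HeJ and 230.1 ± 38.5 in FVB/NJ, with every C3H/HeJ array (314 and above) higher than every FVB/NJ array (270.1 and below; adjusted p = 0.0012). Slc2a1 was called with its highest probe set (849 ± 158 in FVB/NJ and 700.2 ± 118 in 129S6/SvEvTac, adjusted p = 0.0047) and not with the other 2 (0.11 and 0.14). The regions contribute to these spreads, which the fit takes into account. Pecam1, Cdh5, Kdr, Flt1 and Tek were not called with their highest probe sets (adjusted p of 0.063, 0.11, 0.13, 0.15 and 0.24). The other 3 Flt1 probe sets were called (0.0019, 0.032 and 0.036), as was the second of Cdh5 (0.026), so that 8 of the 15 probe sets of these 9 genes were.

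Whether the strain pattern in the pituitary gland differed from that in the brain was tested as an interaction, which called 1 of the 9 genes, Plvap (adjusted p = 0.024, limma), where 15.2% of probe sets were called. A/J had the second highest pituitary mean, 822 ± 61.4, and the second lowest brain mean, while FVB/NJ had the lowest pituitary mean, 566 ± 104, and a brain mean near those of 129S6/SvEvTac and C3H/HeJ. The call was lost after scaling to the same median (0.089) and without A/J pituitary replicate 1 (0.075), either C57BL/6J pituitary array (0.053 and 0.051) or FVB/NJ pituitary replicate 2 (0.053).

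**Figure D4:**
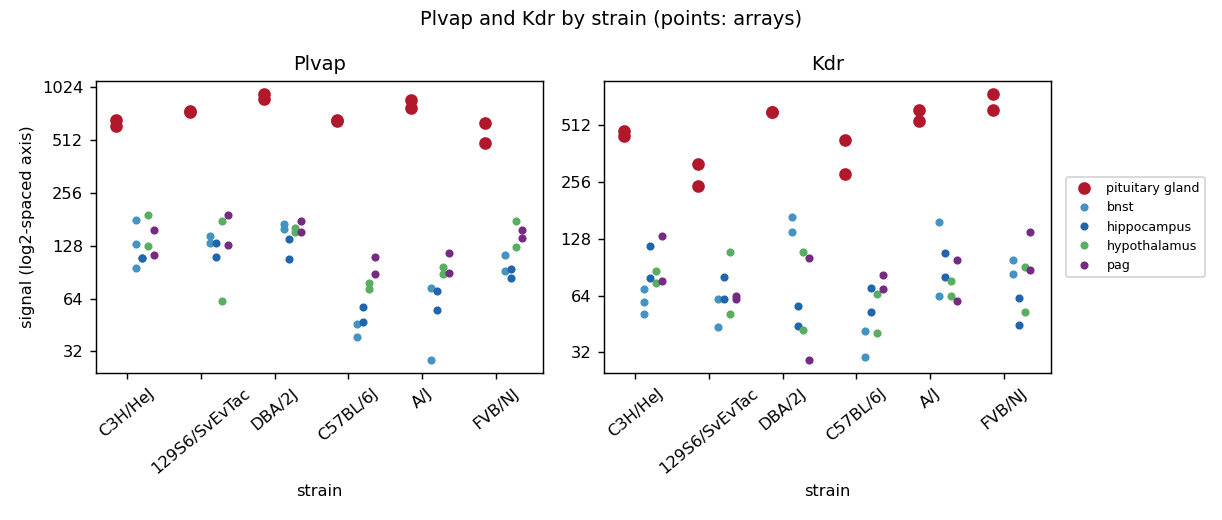
Plvap and Kdr signal of each array (log2-spaced axis) by strain, pituitary gland and brain regions. Pituitary Plvap runs from 492 to 934 and pituitary Kdr from 243 to 747, both above all brain arrays; in the brain, Plvap is lowest in C57BL/6J and A/J.

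Over the 12 pituitary arrays the log2 signal of Esm1 had a Pearson r of 0.54 with Pecam1, 0.45 with Cldn5, 0.33 with Slc2a1 and 0.09 with Plvap, and of -0.62 with Kdr, -0.47 with Cdh5, -0.22 with Flt1, -0.08 with Tek and -0.04 with Slco1a4. These arrays form 6 pairs of 1 strain each, so the values describe mainly 6 strains. With summed signals of other genes, r was -0.66 for the 24 other endothelial genes and -0.63 for pericyte and smooth muscle genes. For the other vascular lists set out below, r was -0.57 (fenestrated, caveolar and tip cell), 0.48 (barrier), -0.42 (VEGF and angiopoietin) and -0.11 (Wnt and norrin). For other cell types it was -0.78 (choroid plexus), -0.58 (microglial), -0.29 (red cell), -0.01 (median eminence), 0.14 (astrocyte), 0.44 (neuronal) and 0.45 (hormones). The part of all these in the strain levels of Esm1 was not tested. The summed endothelial signal was 2522 and 2741 in C3H/HeJ and 2912 and 2918 in 129S6/SvEvTac, 2833 and 3280.3 in DBA/2J, 2895 and 3099.6 in C57BL/6J, 3058 and 3137 in A/J, and 2991 and 3221 in FVB/NJ.

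Of 13190 genes above the floor on all pituitary arrays, those with the log2 signal most like Esm1 were Papola (r = 0.98), a poly(A) polymerase, Zfp865 (0.92), a zinc finger gene, Pura (0.92), a nucleic acid binding protein, Pgrmc1 (0.91), a haem-binding membrane protein, and Ddx24 (0.91), an RNA helicase. The order of strains was that of Esm1 in Papola, over a narrow range: 355 ± 14.0 in C3H/HeJ, 351 ± 12.6 in 129S6/SvEvTac, 297 ± 1.29 in DBA/2J, 288 ± 27.5 in C57BL/6J, 269.5 ± 3.17 in A/J and 251 ± 8.61 in FVB/NJ (SD, n = 2). None of the 5 is a member of the vascular lists below. Over the 30 group means, the genes most like Plvap were Cope, Ganab, Lman2, Ccnd3 and Clic1 (r of 0.94 to 0.95), of which Cope, Ganab and Lman2 act in the secretory pathway, and those most like Cldn5 were Aatk, Zfp428, Pmm1, Klc1 and Tmem229a (r of 0.97 to 0.98), among 17370 genes. Such values rest mainly on the distance between the pituitary gland and the brain, which many genes share.

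The other genes of the same pathways were set out in 6 lists, which share some genes and hold 117 genes in all that are not among the 10. Of these, 56 (47.9%) were called higher and 44 (37.6%) lower in the pituitary gland, against 40.6% and 25.4% of all probe sets, with a median log2 difference of 0.10, close to that over all probe sets. The F test over strains in the pituitary gland called 47 (40.2%), against 31.9% of all probe sets, and that over the brain regions 82 (70.1%), against 51.5%. A list gene stands for its brightest probe set, so these shares are not of like probe sets. Of the 23080 probe sets with a mean signal of at least 100 in at least 1 group, 11209 were called higher and 9089 lower in the pituitary gland. The strain test called 11057 of them and the brain region test 18669. Beside these brighter probe sets, the shares of list genes were close for higher and lower and smaller in both tests. The lists are thus not set apart by these shares.

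Of 24 pan-endothelial genes, 17 rose, 4 fell and 3 were not called, with a median of 0.44. Emcn, a sialomucin of capillary and venous endothelium, averaged 285 ± 30.2 in the pituitary gland and 68.6 ± 14.6 in the brain (log2 difference 2.08, adjusted p = 5.6e-26, limma), and Clec14a rose by 1.87 on the same scale, as are the changes that follow. Vwf, the clotting factor stored in endothelial cells, fell to 22.4 ± 4.96 in the gland, against 72.6 ± 25.3 in the brain (log2 difference -1.65, adjusted p = 2.5e-20). Of 25 further barrier genes, 15 fell, 9 rose and 1 was not called, with a median of -0.58. Slco1c1, a thyroxine transporter of the barrier, averaged 11.6 ± 7.29 in the gland, under the floor, against 459.9 ± 141 in the brain, so its log2 difference of -4.91 is set by the floor. Mfsd2a, a lipid transporter of brain capillaries, fell by 3.39, and Abcb1a, the drug efflux pump, fell by 1.98. Lsr and Marveld2, proteins of junctions where 3 cells meet that epithelial cells also make, rose by 3.17 and 2.35.

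Of 17 genes of the Wnt and norrin pathway, 6 rose and 8 fell (median -0.16). The receptor parts Reck and Tspan12 rose by 2.25 and 1.38, while Ndp (norrin), a ligand made by glia, fell by 1.85 and the Wnt target Apcdd1 fell by 1.99. Wnt7a, a ligand made by neural cells, was also called lower, with a mean of 10.4 ± 11.2 in the gland, under the floor, against 75.2 ± 16.9 in the brain. Of 23 fenestrated, caveolar and tip cell genes, 11 rose and 6 fell (median 0.21). Aplnr, the apelin receptor, rose by 3.93 (322 ± 94.7 in the gland and 21.2 ± 10.2 in the brain), while its ligand Apln, a tip cell gene chosen here after its values were seen, was not called (-0.08, adjusted p = 0.19, limma). The matrix genes Nid2 and Nid1 rose by 2.03 and 1.53, while Unc5b and Pdgfb, also known from tip cells, had differences of -2.04 and -1.26 (both called) and the caveolar gene Cav1 fell by 0.70.

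Of 16 VEGF and angiopoietin genes, 7 rose and 7 fell (median -0.08). The ligands went both ways. Vegfc and Vegfd, ligands of VEGF receptor 3, averaged 299 ± 121 and 260.0 ± 69.5 in the pituitary gland, against 25.4 ± 7.83 and 29.6 ± 13.4 in the brain (log2 differences 3.49 and 3.20), and the receptor itself, Flt4, rose by 1.63. Angpt1, a ligand of Tek, rose by 3.10. Vegfb, a ligand of Flt1, fell by 2.24. Pgf, another, was called lower with a mean of 9.77 ± 7.90 in the gland, under the floor, against 35.4 ± 15.3 in the brain. Of 15 pericyte and smooth muscle genes, 8 rose and 5 fell (median 0.32), with log2 differences of 1.59 for Kcnj8 and -2.33 for Vtn. Red cell, microglial and astrocyte markers also differed between the tissues: astrocyte genes were lower in all 8 and microglial genes in 6 of 10, with 2 higher, and their part in the list differences was not tested.

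**Figure D5:**
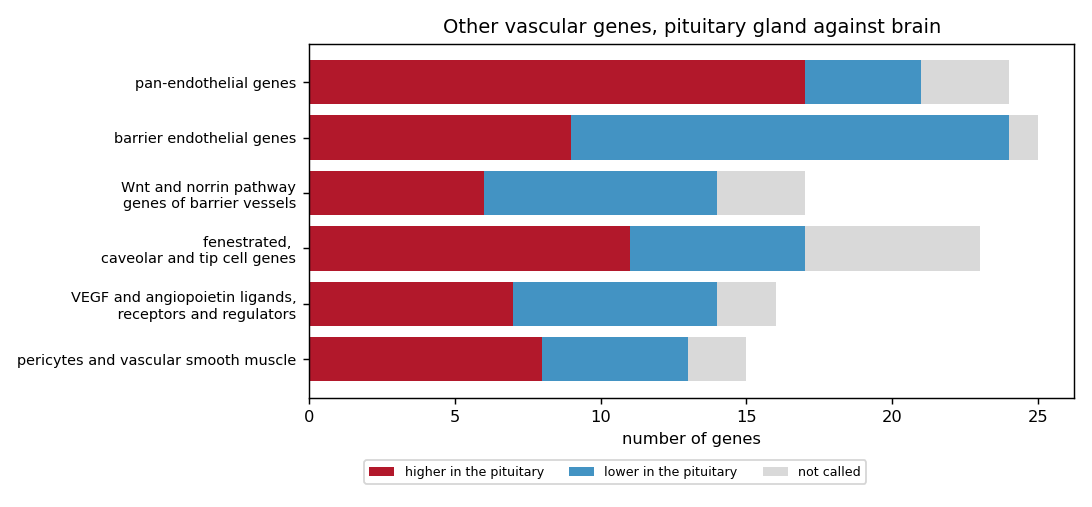
Number of genes of each of 6 vascular lists called higher, lower or not called in the pituitary gland against the mean of the 4 brain regions (adjusted p under 0.05, limma). Pan-endothelial genes are mostly higher (17 of 24) and barrier genes mostly lower (15 of 25).

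Several list genes differed among strains in the pituitary gland, in orders unlike that of Esm1. Vegfc averaged 440.5 ± 5.55 in 129S6/SvEvTac, 426 ± 54.6 in FVB/NJ and 365 ± 20.5 in A/J, against 201 ± 8.08 in C57BL/6J, 185 ± 2.69 in DBA/2J and 177 ± 19.3 in C3H/HeJ (SD, n = 2, adjusted p = 3.8e-05, limma), so C3H/HeJ and 129S6/SvEvTac, alike in Esm1, lay at opposite ends. Angpt1 was highest in FVB/NJ and lowest in C3H/HeJ (adjusted p = 7.2e-06), and Rgs5, a pericyte gene, was highest in C57BL/6J and lowest in 129S6/SvEvTac (1.5e-08). Among the barrier genes, the amino acid transporter Slc7a5 averaged 182 ± 29.1 in 129S6/SvEvTac and 165 ± 3.81 in DBA/2J, against 49.5 ± 18.1 in A/J (1.2e-07). Of the marker lists, 4 of 6 neuronal and 6 of 8 astrocyte genes differed among strains in the pituitary gland by limma. So did 3 of 10 microglial, 2 of 5 median eminence, 1 of 5 red cell and 0 of 8 choroid plexus genes. Of all probe sets, 31.9% were called in this test. The adjusted p of the 7 hormone genes was 0.64 or more.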

How the data were processed

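The deposited intensity values are signals that the authors made from scanned one-colour arrays with TeraGenomics (absolute analysis), which subtracts background and scales each array globally. The version and the scaling target are not given in the sources used here, and precision is limited by how many arrays there are. The values were used as deposited: 61 arrays and 45037 probe sets, of which 34945 name 1 gene, 932 several and 9160 none in the platform annotation, with 64 control probe sets left out beforehand; 5.36% of the values are below 0. A gene stands for its brightest probe set on average over all arrays, and every probe set of the 10 genes was fitted. Groups were taken from the sample labels, 30 of strain and region.

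A mean for each group was fitted in limma 3.58.1 (R 4.3.3) to log2 signals with the floor of 12.78 (20th percentile), with a trended prior (31 residual and 3.44 prior degrees of freedom) and Benjamini-Hochberg adjustment over the 44065 probe sets above the floor on at least 1 array. Brain means weight the 4 regions equally. The fit was tested on simulated data. The 10 genes and all lists were chosen with earlier results of these data known. Named are all probe sets of the 10 genes, up to 4 called genes in each direction with the largest difference in each list, list genes that differ among strains in the pituitary gland, and the 5 genes most correlated with Esm1, Plvap and Cldn5. Alternatives were other floors, filters and scalings, a replicate block, no trend, second probe sets, single brain regions, each array left out and the paper's kind of linear model on signals. Tables and figures used Python 3.11.15, numpy 2.4.6, pandas 2.3.3 and matplotlib 3.10.9.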

Additional observations from a re-analysis of the deposited data

Results flagged for a closer look

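The strain pattern in the pituitary gland differed from that in the brain, by the interaction test of limma adjusted over all probe sets, for Plvap (adjusted p = 0.0243), whose strain means are given above, and for single probe sets of other members. For the second probe set of Slc2a1 (adjusted p = 0.00457), 129S6/SvEvTac was highest in the pituitary gland, at 256 ± 58.2, and FVB/NJ lowest, at 161 ± 11.6, while in the brain FVB/NJ averaged 649 ± 104 and 129S6/SvEvTac 597 ± 80.9. The highest Slc2a1 probe set did not pass this test (0.36). For the fourth probe set of Flt1 (adjusted p = 0.00139), the pituitary mean of A/J was 13.4 ± 0.75, just above the floor, against 34.6 to 46.4 in the other strains, while its brain mean of 53.3 ± 7.84 lay close to the 53.7 ± 13.0 of DBA/2J.

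The same test was passed by 28 of the 117 list genes, all of which also differed among strains in the pituitary gland. Of all probe sets, 15.2% passed it. Of the 23080 probe sets with a mean signal of at least 100 in at least 1 group, 5738 did. That share is near that of the list genes, so the count does not set them apart. Of the genes with the smallest strain p in each list they include Erg (adjusted p = 9.25e-07), Tnfrsf19 (4.13e-06), Slc7a5 (7.31e-06), Angpt1 (1.43e-05), Cav2 (0.00136) and Rgs5 (0.0173). Of the other genes with the largest differences between pituitary gland and brain they include Epas1 (0.000107), Pdgfb (4.5e-04), Vegfb (0.00236), Mfsd2a (0.0112), Igfbp7 (0.0182), Ehd3 (0.0195), Acta2 (0.0226), Nrp2 (0.0302), Ocln (0.0317), Vegfc (0.0327) and Vtn (0.0355). Erg, an endothelial transcription factor, was near the floor, with pituitary means of 34.7 ± 7.68 in DBA/2J and 22 ± 2.59 in C3H/HeJ, 14.8 or less in the other strains, and 6.83 ± 6.88 over the brain arrays. Angpt1 averaged 948 ± 46.3 in the FVB/NJ pituitary gland and 521 ± 94.3 or less in the other strains. Tnfrsf19 ran over pituitary means of 14.7 to 47.5, Cav2 of 135 to 348 and Rgs5 of 586 to 1237.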

How the results depend on the processing

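The count of members called among strains in the pituitary gland (0 of 9) and the interaction count (1 of 9) moved with the processing. The first was 1 with the floor at the 40th percentile, 3 with arrays scaled to the same median, 1 after quantile normalization, 1 with a mean of at least 100 in some group, 4 in the linear model on the signals and 1 with second probe sets, and 0 to 2 when each array was left out in turn. The second was 0, 2, 2, 4 and 2 with median scaling, quantile normalization, the mean filter, the linear model and second probe sets, and 0 to 2 with arrays left out. The causes were not tested. The other counts stayed within 1.5 times: 4 to 6 members among brain regions, 4 to 5 among strains in the brain (4 to 6 with arrays left out), 6 of 10 higher in the pituitary gland in every setting, and 43 to 57 list genes higher and 34 to 49 lower. The ratio of C3H/HeJ to FVB/NJ in Esm1 was 5.36 to 6.996. In the brain strain test, Pecam1 was called without any 1 of 9 arrays (A/J and C3H/HeJ hippocampus 1, A/J hypothalamus 1, C57BL/6J hypothalamus 1 and 2, C3H/HeJ and FVB/NJ hypothalamus 2, DBA/2J pag 1 and FVB/NJ pag 2, adjusted p of 0.025 to 0.0499), Cdh5 without 129S6/SvEvTac hypothalamus 1 (0.0012) or pag 1 (0.043), and Kdr without A/J bnst 1 (0.046) or either DBA/2J pag array (0.040 and 0.046). In the interaction test, Cldn5 was called without DBA/2J pituitary 2 (0.024), Slco1a4 without 129S6/SvEvTac pituitary 2 (0.0041), and Flt1 without C3H/HeJ pag 1, A/J pituitary 2, C57BL/6J pituitary 1 or C3H/HeJ pituitary 1 (0.011 to 0.045). No direction turned among the members. The list gene Slc3a2 changed sign after quantile normalization. Leaving out 6 brain arrays with hormone signal, chosen after seeing the data, gave 4, 0, 5 and 1 calls in the 4 member tests. A replicate block gave 5, 0, 4 and 1. Same-numbered arrays had no common deviation: correlations ran from -0.42 to 0.41 over 435 pairs of groups, with a median of -0.01. In 80 of the pairs the correlation was over 0.1. The numbers were not taken to pair arrays. Signals near the floor limit Esm1 in the brain, Erg, the fourth Flt1 probe set, and Slco1c1, Wnt7a and Pgf in the pituitary gland.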
